A study of Mus musculus with 96 samples.

Results

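The 36 genes described here carry out or control fatty acid oxidation and ketogenesis in the liver. They were taken as a fixed list of symbols from the 25095 gene symbols in each deposited table, and each gene was represented by its RefSeq transcript with the highest mean level. All 36 were found, and all 36 passed the filter on low values in every table. The list holds 1 regulator, 5 genes of fatty acid activation and the carnitine shuttle, 10 genes of the mitochondrial chain, 4 auxiliary enzymes for unsaturated chains, 3 genes of electron transfer, 9 genes of peroxisomes, 2 genes of ketone bodies and 2 genes linked to the fuel switch.

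As background, fatty acids that enter a liver cell are joined to coenzyme A by acyl-CoA synthetases, carried into mitochondria by the carnitine shuttle, and shortened there in repeated cycles of dehydrogenation, hydration, a further dehydrogenation and cleavage. Very long and branched chains are first shortened in peroxisomes, and acetyl-CoA that is not burned in the liver is exported as ketone bodies. PPARα, a nuclear receptor that binds fatty acids, activates many of these genes in fasting, and malonyl-CoA, the first product of fatty acid synthesis, inhibits the entry enzyme of the shuttle.

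Bulk RNA was sequenced from hepatocytes and liver macrophages (LMs) of male mice, labelled C57BL/6J, at 4 times of day, given as zeitgeber time (ZT) in hours from the start of the light phase, which ended at ZT12. All mice carried floxed alleles, received a virus at 8 weeks of age and then ate a high-fat, high-sucrose diet for 4 weeks. Control mice received a virus for GFP. In RevDKO, RevScapTKO and ScapKO mice the virus encoded Cre recombinase under the TBG promoter, which is active in hepatocytes, and was meant to delete Nr1d1 and Nr1d2 (whose proteins, REV-ERBα and REV-ERBβ, repress genes in the circadian clock), both together with Scap (encoding the escort protein of the SREBP transcription factors), or Scap alone. Each genotype, cell type and time had 3 libraries, so each genotype had 12 libraries per cell type. The LMs were not the target of the deletion. Values are RPKTM, reads per kilobase scaled to 10000000 reads, quantile normalized by the authors within each of 4 tables, and the ScapKO libraries stand in tables of their own. Differences are on the log2(RPKTM + 1) scale, averaged over the 4 times, with the standard error (SE) and the adjusted p of limma over all genes tested, called below 0.05. In bulk RNA, fewer cells of a type and less RNA per cell cannot be told apart.

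The labels were checked first. In hepatocytes Scap was lower in RevScapTKO than in RevDKO by a log2 difference of −1.40 ± 0.14 (SE, limma adjusted p = 9.77e-09). Nr1d1 was higher than in Control in both RevDKO (1.55 ± 0.25, limma adjusted p = 8.87e-05) and RevScapTKO (1.79 ± 0.25, limma adjusted p = 2.13e-06). Nr1d2 was higher in RevScapTKO (0.95 ± 0.19, limma adjusted p = 0.000318) and had a difference of 0.62 ± 0.19 in RevDKO (limma adjusted p = 0.0626). Single libraries of Nr1d1 ran from 3.57 to 358 RPKTM in Control, 39.9 to 359 in RevDKO and 51.2 to 231 in RevScapTKO. Those of Nr1d2 ran from 34.2 to 422, 39.2 to 474 and 228 to 450 RPKTM in the same order. For Nr1d1, Control and RevDKO thus had nearly the same highest value and different lowest values. The paper reports a marked reduction of both genes in hepatocytes, citing a figure captioned as relative mRNA levels in livers. The means over the times of the RPKTM values here do not show it, and the 2 measures may differ. Whether the counted bases lie outside the deleted part was not tested. RevDKO and RevScapTKO below therefore mean the libraries labelled so. Hepatocyte libraries held RNA of other cells: the 14 macrophage markers together reached a median of 988 RPKTM in Control (range 273 to 3547), 1231 in RevDKO (464 to 2737) and 3275 in RevScapTKO (1073 to 7044), and none was at 0 in every library. These sums were also lower at ZT4 (mean 511 RPKTM in Control) than at ZT22 (2946). The 12 hepatocyte markers had a median sum of 562071, 493865 and 525505 RPKTM in the same order. Per the labels, RNA came from liver tissue or from isolated cells, whereas the study's methods name isolated hepatocytes.

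**Figure D1:**
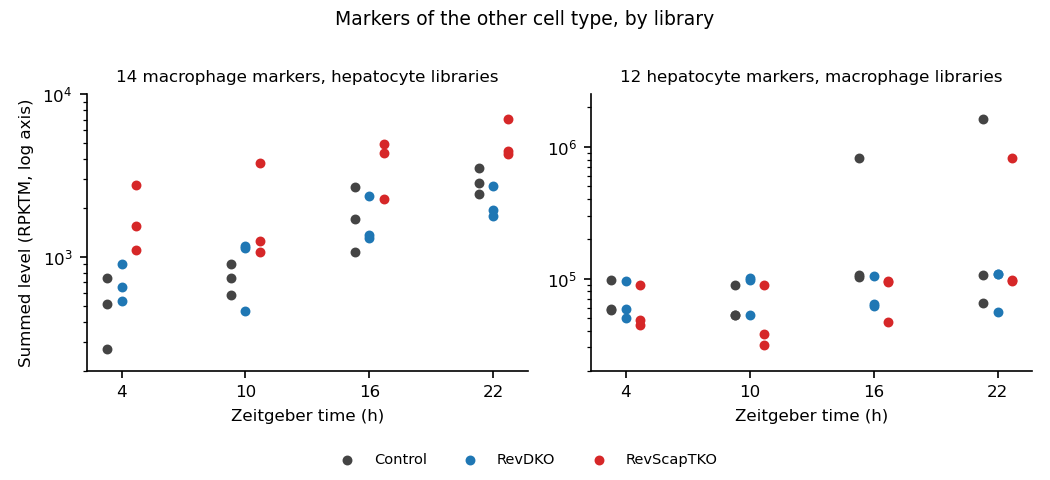
Summed level (RPKTM, log axis) of 14 macrophage markers in hepatocyte libraries (left) and of 12 hepatocyte markers in LM libraries (right) against zeitgeber time in hours, 1 point per library. In hepatocyte libraries the sum was highest in RevScapTKO (median 3275 RPKTM, against 988 in Control) and higher at ZT22 than at ZT4, and in LM libraries 3 points stand far above the others.

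Among Control hepatocytes the 36 genes spanned a wide range of levels per kilobase. Acsl1, the main acyl-CoA synthetase of the liver, was highest, at 4592 ± 609 RPKTM on average (SD, n = 12). The lowest was Pdk4, a kinase that blocks the entry of pyruvate into mitochondrial oxidation, with 23.7 ± 12.8 RPKTM. The α and β subunits of the mitochondrial trifunctional protein, which work in 1 complex, stood far apart: Hadha was 7.38 to 14.5 times as high as Hadhb in the 36 hepatocyte libraries (median 10.3).

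The libraries labelled RevDKO were compared with Control hepatocytes first. Of the 36 genes 11 were lower and 0 higher, beside 2.43% of all 13326 genes tested that were lower and 2.0% that were higher, 4.43% in either direction. The median log2 difference was −0.26 over the list and −0.01 over all genes tested, and 29 of 36 values were below 0. The genes that fell were Acaa1b, Vnn1, Decr2, Slc25a20, Acaa1a, Cpt1a, Bdh1, Pex11a, Cpt2, Etfb and Hsd17b4. By group of the list, peroxisomes (4 of 9) and activation and the carnitine shuttle (3 of 5) gave most of the calls. The mitochondrial chain gave 0 of 10.

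The largest difference was in Acaa1b, a peroxisomal 3-ketoacyl-CoA thiolase, which cleaves the shortened chain (mm9 chr9:119057161-119066211, minus strand). Its level ran from 929 to 2141 RPKTM in Control, with a median of 1576, and from 275 to 541 RPKTM in RevDKO, with a median of 423. Every RevDKO library lay below every Control library. The log2 difference was −1.81 ± 0.22 (limma adjusted p = 9.08e-07), a fold of 0.284.

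Acaa1a, a near-identical thiolase gene on the same chromosome (mm9 chr9:119250412-119259413, plus strand), fell less. It ran from 178 to 455 RPKTM in Control and from 191 to 314 in RevDKO, and the 2 groups overlapped (−0.54 ± 0.15, limma adjusted p = 0.0257). The ratio of Acaa1b to Acaa1a was 2.79 to 5.34 in Control libraries (median 4.08), 1.32 to 2.06 in RevDKO (1.70) and 0.283 to 1.68 in RevScapTKO (0.892), so that Control and RevDKO did not overlap. Over 1275 coding bases of the GENCODE models the genes were 96.5% identical, with 44 differing bases and a longest identical run of 327 bases, and 35.5% of all windows of 50 bases in the Acaa1b transcript also occurred in that of Acaa1a. Reads from such windows could have been counted for either gene, so the split between them is uncertain. The stretch of 60 coding bases with the most differences, 11, shows how the genes can be told apart, with the differing bases in capitals (coding bases 259 to 318).
Acaa1a: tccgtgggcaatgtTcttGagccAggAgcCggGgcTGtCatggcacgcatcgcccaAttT
Acaa1b: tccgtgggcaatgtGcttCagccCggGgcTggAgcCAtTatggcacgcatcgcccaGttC

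The other genes of the peroxisomal group that fell were Pex11a, which acts in peroxisome division (−0.43 ± 0.13, limma adjusted p = 0.0465), and Hsd17b4, the bifunctional enzyme for branched and very long chains (−0.39 ± 0.10, limma adjusted p = 0.01). Ehhadh, the bifunctional enzyme for straight chains, had a median of 728 RPKTM in Control and 653 in RevDKO and did not pass the test (−0.24 ± 0.14, limma adjusted p = 0.412). The remaining genes of this group, Acox2, Crot, Crat and Abcd3, did not pass either, with values from −0.45 to −0.07.

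In the carnitine shuttle the RNA levels of the 3 genes whose proteins act in sequence were all lower in RevDKO. Cpt1a encodes carnitine palmitoyltransferase 1A, the entry enzyme of the outer membrane (mm9 chr19:3323301-3385733, plus strand). It ran from 1415 to 2419 RPKTM in Control (median 1947) and from 1024 to 1636 in RevDKO (median 1407). The groups overlapped in part, with 6 of 12 RevDKO libraries below all Control libraries (−0.51 ± 0.11, limma adjusted p = 0.00275). Slc25a20, the carrier across the inner membrane, fell by 0.54 ± 0.14 on the log2 scale (limma adjusted p = 0.0161), and Cpt2, which releases the acyl chain to coenzyme A inside, by 0.40 ± 0.11 (limma adjusted p = 0.0247). Of the synthetases that precede the shuttle, Acsl1 had nearly the same mean in both genotypes (4522 and 4592 RPKTM). Acsl5 was 2657 ± 698 RPKTM in RevDKO and 2067 ± 419 in Control and did not pass the test (0.35 ± 0.12, limma adjusted p = 0.0909).

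None of the 10 genes of the mitochondrial chain passed the test. Acadm, the medium-chain acyl-CoA dehydrogenase, had a mean of 652 ± 190 RPKTM in RevDKO and 650 ± 167 in Control (0.00 ± 0.12, limma adjusted p = 0.998). Hadha, which carries the hydratase and long-chain dehydrogenase activities, had 902 ± 98.2 and 940 ± 216 RPKTM (−0.01 ± 0.12, limma adjusted p = 0.979). Beside the chain, Decr2 fell from a median of 429 to 262 RPKTM (−0.64 ± 0.14, limma adjusted p = 0.00347). It encodes the peroxisomal dienoyl-CoA reductase and was grouped here with the auxiliary enzymes for unsaturated chains. Etfb, a subunit of the flavoprotein that takes electrons from the acyl-CoA dehydrogenases, fell by 0.40 ± 0.11 on the log2 scale (limma adjusted p = 0.0265), whereas its partner subunit Etfa did not pass (0.11 ± 0.15, limma adjusted p = 0.796).

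Bdh1, which interconverts the 2 main ketone bodies, ran from 170 to 564 RPKTM in Control (median 326) and from 130 to 371 in RevDKO (median 256). The ranges overlapped widely, and the difference was −0.46 ± 0.13 (limma adjusted p = 0.0412). This call and that of Pex11a were lost in 16 and 18 of 24 fits that left out 1 library each. The calls of Etfb, Acaa1a and Cpt2 were lost in 7, 4 and 3 of these fits. Vnn1, a pantetheinase known as a PPARα target, fell from a median of 172 RPKTM (range 60.9 to 254) to 59.4 (30.9 to 102), with 6 of 12 RevDKO libraries below all Control libraries (−1.28 ± 0.29, limma adjusted p = 0.00546). Pdk4 had medians of 24.8 and 24.9 RPKTM (0.27 ± 0.26, limma adjusted p = 0.672). Ppara itself, at 1169 ± 207 RPKTM in RevDKO and 1573 ± 491 in Control, missed the threshold (−0.39 ± 0.12, limma adjusted p = 0.0512).

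With the mean log2 level of the 14 macrophage markers in the fit, 12 genes were lower, the same 11 and Ppara, beside 2.86% of all genes tested. Without replicate 1 of Control at ZT22 the count was 6.

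**Figure D2:**
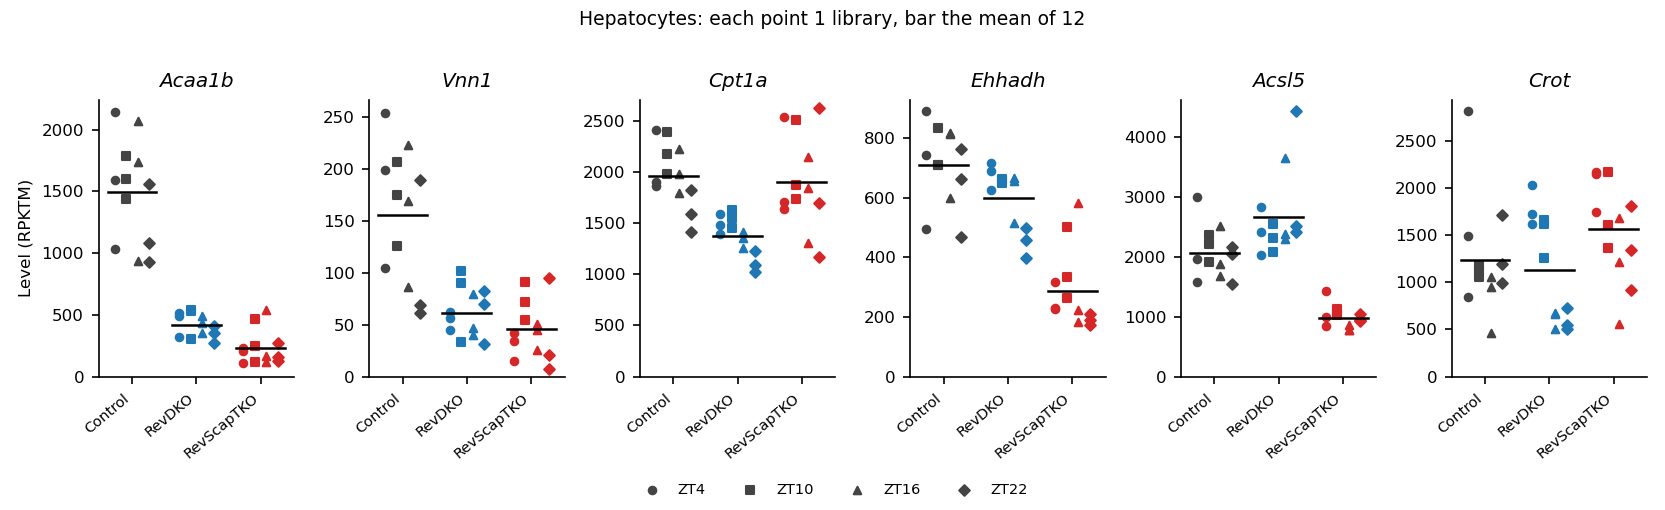
Level (RPKTM) of 6 genes in hepatocyte libraries of 3 genotypes, 1 point per library with its shape giving the zeitgeber time, and a bar at the mean of 12. Acaa1b was lower in all 12 RevDKO libraries than in any Control library, Acsl5 and Ehhadh were low in RevScapTKO, and Cpt1a was lower in RevDKO than in both other genotypes.

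RevScapTKO was then compared with RevDKO, which differs from it by the label of the Scap deletion. In hepatocytes 11 of the 36 genes were lower and 2 higher, beside 12.7% of all genes tested that were lower and 13.5% that were higher, 26.2% in either direction. The median was −0.25 over the list and −0.03 over all genes tested. The genes that fell were Acsl5, Ehhadh, Acaa1b, Pdk4, Echs1, Eci1, Acads, Etfa, Acadl, Acsl1 and Abcd3, and those that rose were Crot and Cpt1a. The share of genes that fell, 30.6%, was above the background, and the share that rose, 5.56%, was below it.

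Acsl5, an acyl-CoA synthetase of the liver and intestine (mm9 chr19:55327859-55371118, plus strand), had the largest difference. It ran from 2033 to 4435 RPKTM in RevDKO (median 2415) and from 782 to 1419 in RevScapTKO (median 965). No RevScapTKO library reached the lowest RevDKO library, nor the lowest Control library (1537 RPKTM). The difference was −1.42 ± 0.12 (limma adjusted p = 8.72e-11), a fold of 0.374.

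Ehhadh (mm9 chr16:21761358-21787907, minus strand), which had not passed between RevDKO and Control, ran from 399 to 716 RPKTM in RevDKO (median 653) and from 175 to 582 in RevScapTKO (median 227). In 10 of 12 RevScapTKO libraries it lay below all RevDKO libraries (−1.15 ± 0.14, limma adjusted p = 3.18e-07). Acaa1b fell further, to a median of 189 RPKTM (range 109 to 536), and 10 of 12 libraries lay below all of RevDKO (−1.03 ± 0.22, limma adjusted p = 0.000952). Abcd3, a peroxisomal importer of acyl-CoA, fell by 0.36 ± 0.12 on the log2 scale (limma adjusted p = 0.0234).

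Crot, the peroxisomal carnitine octanoyltransferase that passes shortened chains on to mitochondria, went the other way. Its median was 993 RPKTM in RevDKO (range 503 to 2033) and 1647 in RevScapTKO (558 to 2167), with a wide overlap (0.57 ± 0.18, limma adjusted p = 0.0169). Cpt1a rose from a median of 1407 to 1791 RPKTM, and 10 of 12 RevScapTKO libraries lay above all RevDKO libraries (0.44 ± 0.11, limma adjusted p = 0.00328). The mean of Cpt1a was thus 1375 ± 191 RPKTM in RevDKO, 1902 ± 470 in RevScapTKO and 1968 ± 303 in Control.

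In the mitochondrial chain Echs1, the short-chain enoyl-CoA hydratase, fell by 0.70 ± 0.15 on the log2 scale (limma adjusted p = 0.000933). The short-chain dehydrogenase Acads (−0.44 ± 0.11, limma adjusted p = 0.00467) and the long-chain dehydrogenase Acadl (−0.41 ± 0.11, limma adjusted p = 0.00786) also fell. Acadm (0.12 ± 0.12, limma adjusted p = 0.492) and Hadha (−0.05 ± 0.12, limma adjusted p = 0.803) did not pass. Eci1, the mitochondrial enoyl-CoA isomerase for unsaturated chains, fell by 0.46 ± 0.15 on the log2 scale (limma adjusted p = 0.0212) and Etfa by 0.44 ± 0.15 (limma adjusted p = 0.0315). The value of Etfa was 0.035 with macrophage markers in the fit (limma adjusted p = 0.97), and its call was lost in 7 of 24 fits that left out 1 library each.

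Pdk4 fell from a median of 24.9 to 15.3 RPKTM (−0.79 ± 0.26, limma adjusted p = 0.0233) and Acsl1 from a mean of 4522 to 3647 RPKTM (−0.36 ± 0.13, limma adjusted p = 0.0409). The call of Acsl1 was lost in 15 of 24 fits that left out 1 library each. Ppara (−0.11 ± 0.12, limma adjusted p = 0.534) and Bdh1 (−0.05 ± 0.13, limma adjusted p = 0.827) did not pass.

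Macrophage marker sums moved with this comparison, as given above. With the mean log2 level of the 14 markers in the fit, 2 of the 36 genes passed, Acsl5 (−1.34, limma adjusted p = 1.05e-06) and Ehhadh (−0.82, limma adjusted p = 0.00526), beside 2.57% of all genes tested in either direction. The value of Acaa1b was then −0.61 (limma adjusted p = 0.391), that of Cpt1a 0.15 (limma adjusted p = 0.744) and that of Crot 0.63 (limma adjusted p = 0.234).

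**Figure D3:**
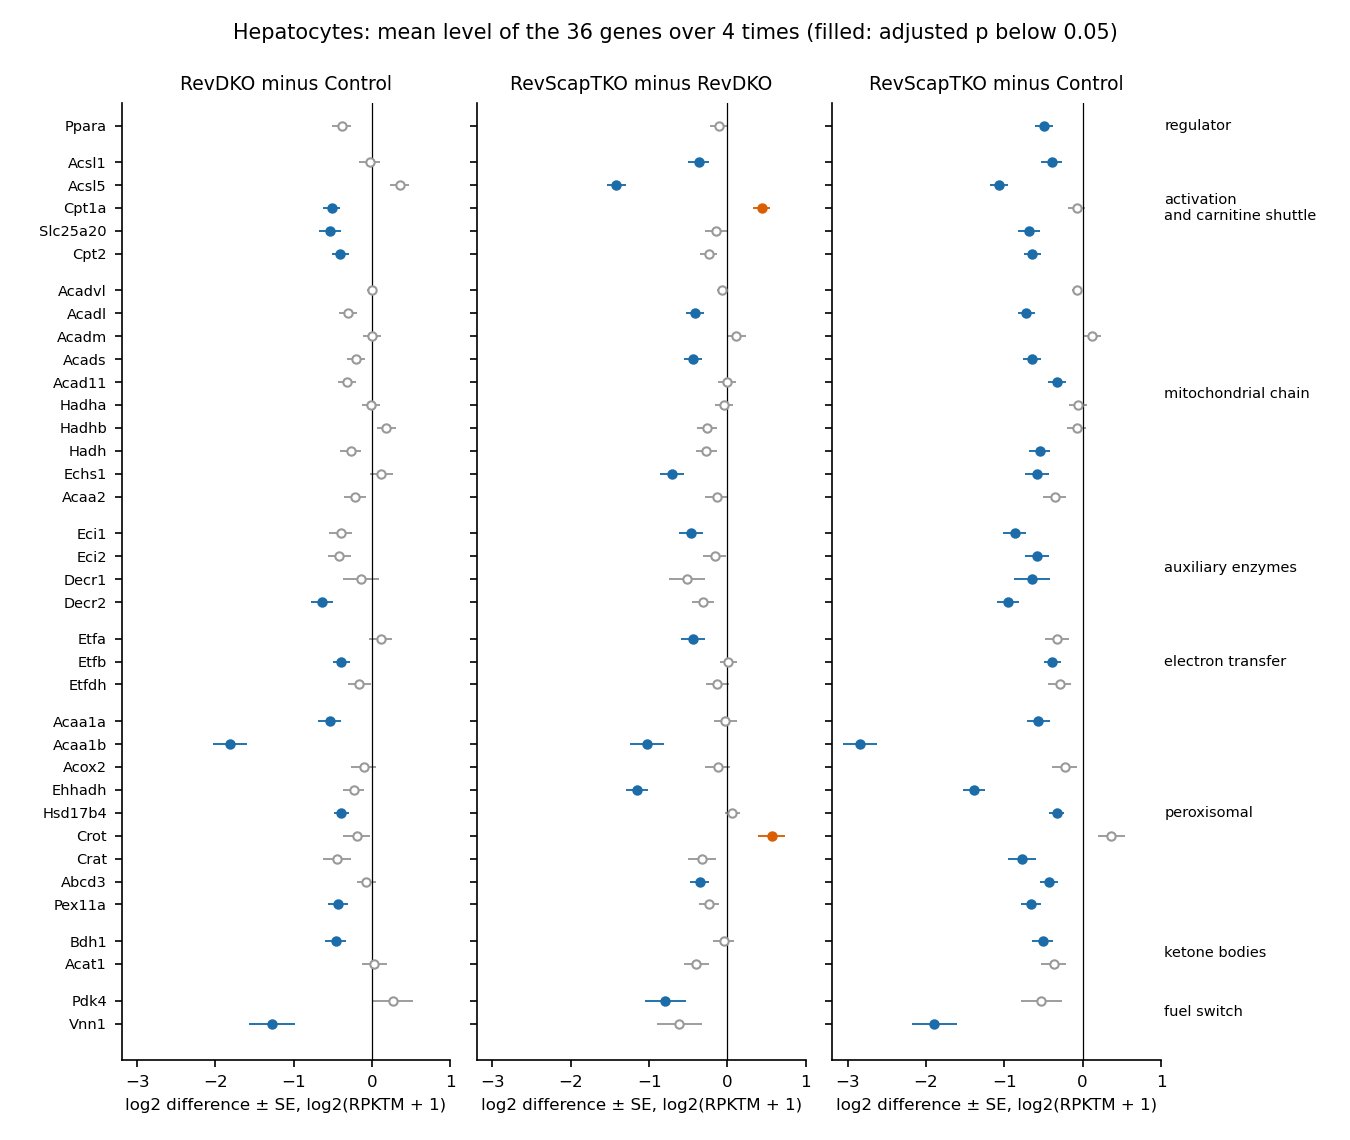
Log2 difference in mean level over 4 times (log2(RPKTM + 1) scale, points with SE) for the 36 genes in 3 hepatocyte comparisons, ordered by role. Filled points passed the test (blue lower, orange higher): 11 were lower in RevDKO than in Control, 11 lower and 2 higher in RevScapTKO than in RevDKO, and 24 lower in RevScapTKO than in Control.

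Set against Control, RevScapTKO hepatocytes had 24 of the 36 genes lower and 0 higher, beside 18.7% of all genes tested that were lower and 17.3% that were higher, 35.9% in either direction. The median was −0.52 over the list and −0.04 over all genes tested. This comparison shares its libraries with both others, and its values are given side by side with theirs. By role, 4 of 4 auxiliary enzymes, 4 of 5 genes of activation and the shuttle, 7 of 9 peroxisomal genes and 5 of 10 genes of the mitochondrial chain fell.

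Acaa1b had the largest difference, with a median of 1576 RPKTM in Control and 189 in RevScapTKO and no overlap (−2.84 ± 0.22, limma adjusted p = 1.26e-11), a fold of 0.14. Vnn1 followed, with medians of 172 and 43.2 RPKTM and 9 of 12 libraries below all Control libraries (−1.89 ± 0.29, limma adjusted p = 8.82e-06). Ehhadh (−1.39 ± 0.14, limma adjusted p = 4.34e-09) and Acsl5 (−1.07 ± 0.12, limma adjusted p = 2.87e-08) came next. Acaa1b passed the test between each pair of genotypes, Vnn1 did not pass between RevScapTKO and RevDKO (−0.61 ± 0.29, limma adjusted p = 0.116), and Ehhadh and Acsl5 did not pass between RevDKO and Control.

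Decr2 (−0.96 ± 0.14, limma adjusted p = 4.2e-06), Eci1 (−0.87 ± 0.15, limma adjusted p = 4.34e-05), Acadl (−0.72 ± 0.11, limma adjusted p = 1.39e-05), Slc25a20 (−0.69 ± 0.14, limma adjusted p = 0.000303) and Pex11a (−0.66 ± 0.13, limma adjusted p = 0.000187) fell as well. Crat, which moves short acyl groups between coenzyme A and carnitine, fell from a mean of 138 to 76.2 RPKTM (−0.77 ± 0.18, limma adjusted p = 0.00116). Ppara fell by 0.50 ± 0.12 on the log2 scale (limma adjusted p = 0.00151) and Bdh1 by 0.51 ± 0.13 (limma adjusted p = 0.00385).

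Cpt1a (−0.07 ± 0.11, limma adjusted p = 0.623), Hadha (−0.06 ± 0.12, limma adjusted p = 0.728), Acadm (0.12 ± 0.12, limma adjusted p = 0.457) and Pdk4 (−0.53 ± 0.26, limma adjusted p = 0.112) did not pass. Acadvl (−0.07) and Hadhb (−0.08), further enzymes of the long-chain part of the cycle, did not pass either. With macrophage markers in the fit 4 genes passed, Acaa1b (−2.39, limma adjusted p = 1.15e-06), Vnn1 (−2.24, limma adjusted p = 0.000488), Ehhadh (−1.03, limma adjusted p = 0.000289) and Acsl5 (−0.98, limma adjusted p = 0.000198), beside 6.03% of all genes tested. Among the 36 genes, 8 have exons that overlap those of another gene in the mm9 annotation, mostly on the opposite strand, led by Acadvl (42.9% of its exon bases, with Dvl2) and Acaa1b (11.4%, with Dlec1). Whether the counting used the strand is not given in the sources used here.

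The 250 bases before the RefSeq start were read for the 30 of 36 genes with an entry (RefSeq, GRCm38.p6). The letters of 4 motifs were searched on both strands. A gene was counted if any of its windows matched (34 windows for the 30 genes). The shares of all windows count each window, so the 2 kinds of share differ in unit. AGGTCA, a hexamer bound by nuclear receptors such as PPARα, was present in 4 of 30 genes (13.3%) and in 14% of all 32851 promoter windows of the same length. The direct repeat of this hexamer with 1 base between, in which the fourth base of each copy was free, so that it can overlap the first motif, was present in 0 of 30 genes and in 0.338% of all windows. TCACNCCAC, a form of the sterol regulatory element bound by SREBP, was present in 2 of 30 genes, Acsl1 and Ehhadh (6.67%), and in 1.05% of all windows. CACGTG, the E-box of clock activators and SREBP, was present in 0 of 30 genes and in 6.02% of all windows. A match is a description of the letters and not a site, and these windows hold only the bases just before the start. The windows of the genes with the largest differences and of Cpt1a are shown with matches in capitals, at chr9:119157094-119157343 (minus), chr16:21787835-21788084 (minus), chr19:55253119-55253368 (plus) and chr19:3323051-3323300 (plus).
Acaa1b: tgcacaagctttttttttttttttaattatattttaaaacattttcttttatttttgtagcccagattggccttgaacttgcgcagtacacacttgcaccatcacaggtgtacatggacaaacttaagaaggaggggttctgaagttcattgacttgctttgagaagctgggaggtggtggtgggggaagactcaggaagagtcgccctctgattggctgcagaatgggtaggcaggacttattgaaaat
Ehhadh: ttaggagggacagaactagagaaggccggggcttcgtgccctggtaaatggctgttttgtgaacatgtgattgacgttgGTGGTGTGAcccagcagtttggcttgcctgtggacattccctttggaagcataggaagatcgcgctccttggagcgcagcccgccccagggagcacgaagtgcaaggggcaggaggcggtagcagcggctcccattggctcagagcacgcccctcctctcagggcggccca
Acsl5: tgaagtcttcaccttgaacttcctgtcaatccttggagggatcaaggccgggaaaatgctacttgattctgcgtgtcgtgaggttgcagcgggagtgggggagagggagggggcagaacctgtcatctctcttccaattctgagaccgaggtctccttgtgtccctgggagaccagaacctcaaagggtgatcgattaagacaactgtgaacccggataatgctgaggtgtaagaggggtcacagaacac
Cpt1a: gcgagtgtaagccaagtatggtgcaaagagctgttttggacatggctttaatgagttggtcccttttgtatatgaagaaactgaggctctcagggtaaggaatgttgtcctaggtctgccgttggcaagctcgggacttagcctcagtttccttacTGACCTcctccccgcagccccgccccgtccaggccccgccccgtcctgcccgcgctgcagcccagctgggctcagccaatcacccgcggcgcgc

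The 4 times of day allowed a test for a 24 h rhythm, with a cosine and a sine term in the same limma fit. In Control hepatocytes 2 of 36 genes were rhythmic, Ppara and Bdh1, beside 8.29% of all genes tested. In RevDKO 3 genes were rhythmic (Crot, Bdh1 and Decr2), beside 4.08% of all genes, and in RevScapTKO 1 gene (Acadl), beside 0.683%. The fitted peak-to-trough difference of the 36 genes had a median of 0.44, 0.51 and 0.55 log2 units in the 3 genotypes, against 0.50, 0.52 and 0.51 for all genes tested.

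Most of the genes had their highest mean in the light phase, though few passed the test of a rhythm. In Control 15 of 36 had their highest mean at ZT4 and 14 at ZT10, in RevDKO 22 were highest at ZT10, and in RevScapTKO 28 were. Macrophage marker sums were higher at ZT22 than at ZT4 in all 3 genotypes, and with these markers in the fit 0, 1 (Crot) and 0 genes were rhythmic in Control, RevDKO and RevScapTKO. The shares of all genes highest at each time and of all genes rhythmic in that fit are not given here.

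Ppara in the 3 Control libraries was 1465, 2173 and 2631 RPKTM at ZT4, 1988, 1775 and 1704 at ZT10, 1375, 1143 and 1209 at ZT16, and 1110, 1195 and 1109 at ZT22. All libraries of ZT4 and ZT10 lay above all of ZT16 and ZT22. The fitted peak-to-trough difference was 0.98 log2 units (limma adjusted p = 0.0213). In RevDKO it was 0.29 (limma adjusted p = 0.697), but the rhythms of the 2 genotypes were not shown to differ (limma adjusted p = 0.9999 for the difference).

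Bdh1 had its highest mean at ZT10 in every genotype, where RevScapTKO reached 332 ± 62.7 RPKTM, RevDKO 353 ± 24.3 and Control 472 ± 55.0 (SD, n = 3). At ZT22 the means were 194, 168 and 249 RPKTM in the same order. The peak-to-trough difference was 1.08 log2 units in Control (limma adjusted p = 0.0275) and 1.21 in RevDKO (limma adjusted p = 0.0238), and in RevScapTKO it was 0.89 and did not pass (limma adjusted p = 0.152).

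Crot had the largest rhythm among the genes that passed. In RevDKO its libraries gave 1615, 2033 and 1724 RPKTM at ZT4, 1621, 1656 and 1259 at ZT10, 506, 667 and 678 at ZT16, and 549, 503 and 728 at ZT22. Every light phase library lay above every dark phase library, with a peak-to-trough difference of 2.05 log2 units (limma adjusted p = 0.0041). In Control the means were 1717, 1120, 821 and 1298 RPKTM at the same times, where 1 library at ZT4 reached 2816 and the other two 847 and 1488 (1.0 log2 units, limma adjusted p = 0.153). In RevScapTKO they were 2020, 1712, 1152 and 1356 RPKTM (1.01 log2 units, limma adjusted p = 0.21).

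Decr2 in RevDKO fell from 354 ± 73.5 RPKTM at ZT10 to 158 ± 29.1 at ZT22 (SD, n = 3), with a peak-to-trough difference of 1.18 log2 units (limma adjusted p = 0.0326). Acadl in RevScapTKO went from 308 ± 38.1 to 139 ± 63.4 RPKTM between the same times (1.26 log2 units, limma adjusted p = 0.0263). Both also had lower means at ZT22 than at ZT10 in the other genotypes.

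No gene of the list passed the test of a changed rhythm, which compares the cosine and sine terms of 2 genotypes. Between RevDKO and Control 2 of 36 genes had an unadjusted limma p below 0.05 (5.56%), beside 4.91% of all genes, led by Crot (limma adjusted p = 0.669). After adjustment 0.203% of all genes passed. Between RevScapTKO and RevDKO it was 1 gene, Abcd3 (limma adjusted p = 0.944), beside 5.06% of all genes, and 0.00% of all genes passed after adjustment.

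**Figure D4:**
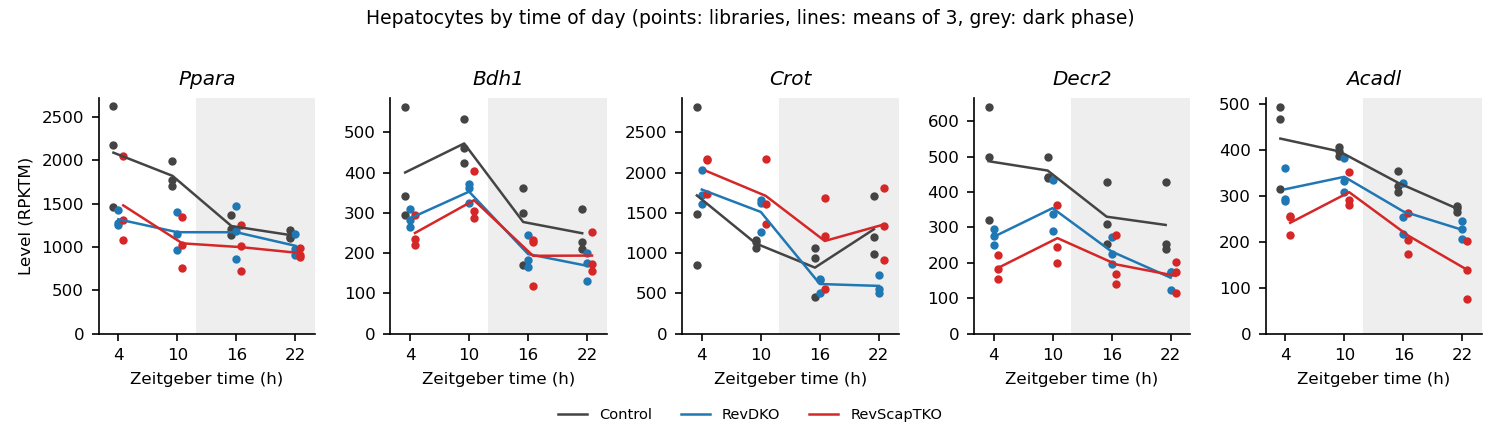
Level (RPKTM) of Ppara, Bdh1, Crot, Decr2 and Acadl in hepatocytes against zeitgeber time in hours, with 1 point per library, lines through the means of 3 and the dark phase in grey. Crot in RevDKO fell from a mean of 1791 RPKTM at ZT4 to 593 at ZT22, and Bdh1 was highest at ZT10 in all 3 genotypes.

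In libraries labelled LMs the same genes were found at a lower level. The Control mean in LMs was between 7.66% and 69.5% of that in hepatocytes, with a median of 16.2%. For the 12 hepatocyte markers the LM median was between 6.13% and 19.6% of the hepatocyte median, with a middle value of 12.7%. The tables were normalized apart, so these shares are descriptions. Macrophage markers reached medians of 20239, 10264 and 11059 RPKTM in Control, RevDKO and RevScapTKO, and hepatocyte markers 93844, 79646 and 89186 RPKTM, and the lowest LM library had a hepatocyte marker sum of 31105 RPKTM.

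Between RevDKO and Control LMs 0 of 36 genes passed the test of limma, beside 0.402% of all 13947 genes tested that were higher and 0.172% that were lower, 0.574% in either direction. At an unadjusted limma p below 0.05 there were 5 of the 36 genes, beside 13.9% of all genes. The median was −0.12 over the list and −0.04 over all genes. Acaa1b, the gene with the largest difference in hepatocytes, had 173 ± 77.4 RPKTM in RevDKO and 400 ± 239 in Control (−1.09 ± 0.28, limma adjusted p = 0.069), and it passed when hepatocyte markers stood in the fit. Cpt1a was 273 ± 34.5 RPKTM in RevDKO and 348 ± 31.8 in Control (SD, n = 12), with 9 of 12 libraries below all Control libraries (−0.35 ± 0.15, limma adjusted p = 0.282). Ppara (−0.06), Acadm (−0.40), Hadha (−0.33), Ehhadh (−0.16), Bdh1 (0.03) and Pdk4 (−0.40) did not pass.

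Between RevScapTKO and RevDKO LMs 4 genes were lower and 0 higher, beside 1.78% of all genes that were lower and 1.23% that were higher (3.0% in either direction), with a median of −0.29 over the list and 0.04 over all genes. Acsl5 ran from 323 to 1505 RPKTM in RevDKO (median 590) and from 119 to 389 in RevScapTKO (median 253), and 10 of 12 libraries lay below all RevDKO libraries (−1.25 ± 0.19, limma adjusted p = 6.34e-05). Ehhadh ran from 30.5 to 164 RPKTM and from 16.6 to 53.1 RPKTM in the same order (−1.24 ± 0.18, limma adjusted p = 2.97e-05). Acaa1b (−1.18 ± 0.28, limma adjusted p = 0.0131) and Echs1 (−0.77 ± 0.18, limma adjusted p = 0.00853) fell too. These 4 genes were also lower in RevScapTKO than in RevDKO hepatocytes.

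With the mean log2 level of the 12 hepatocyte markers in the fit, Acsl5 (−1.07, limma adjusted p = 0.00662) and Ehhadh (−1.05, limma adjusted p = 0.00513) still passed. Acaa1b was −0.55 (limma adjusted p = 0.267) and Echs1 −0.68 (limma adjusted p = 0.0563). Of all genes 4.19% were higher and 2.70% lower in this fit. The markers follow the amount of hepatocyte RNA in a library, not its level of these genes. Whether the lower values came from LMs or from that RNA was not tested. Without the 3 LM libraries in which Alb, the albumin gene, took over 10% of the summed values, the 4 genes passed again. That is a choice made after seeing the data.

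Set against Control, RevScapTKO LMs had 6 genes lower and 0 higher, beside 1.38% and 2.38% of all genes (3.76% in either direction), with a median of −0.41 over the list and −0.04 over all genes. These were Acaa1b (−2.27 ± 0.28, limma adjusted p = 1.26e-06), Ehhadh (−1.41 ± 0.18, limma adjusted p = 2.59e-06), Acsl5 (−1.03 ± 0.19, limma adjusted p = 0.00103), Decr2 (−0.62 ± 0.18, limma adjusted p = 0.0402), Acaa2, the mitochondrial thiolase (−0.62 ± 0.16, limma adjusted p = 0.02), and Decr1, the mitochondrial dienoyl-CoA reductase (−0.62 ± 0.18, limma adjusted p = 0.0384). Ehhadh was lower in all 12 RevScapTKO libraries than in any Control library, and Acaa1b in 11. The calls of Decr1 and Decr2 were each lost in 16 of 24 fits that left out 1 library, and the count was 3 without replicate 2 of Control at ZT10.

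**Figure D5:**
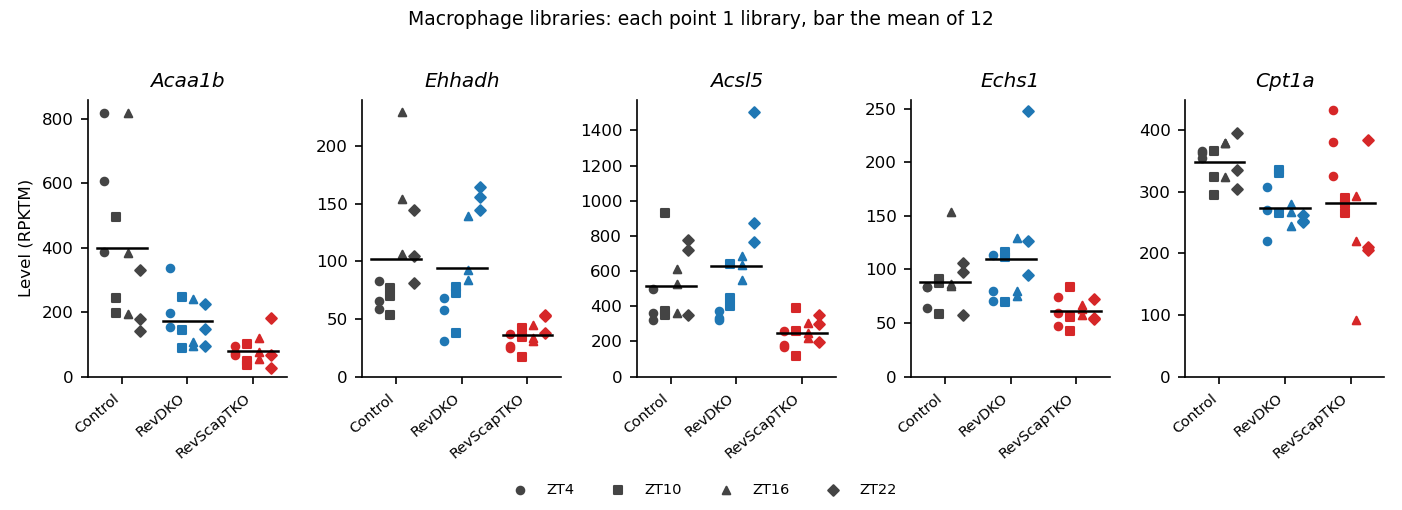
Level (RPKTM) of 5 genes in LM libraries of 3 genotypes, 1 point per library with its shape giving the zeitgeber time, and a bar at the mean of 12. Acaa1b, Ehhadh and Acsl5 were low in RevScapTKO, with Ehhadh in all 12 libraries below the lowest Control library, and Cpt1a did not pass a test in LMs.

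In LMs the same test of a 24 h rhythm was applied within each genotype. In Control and RevScapTKO 0 genes passed limma, beside 0.0502% and 0.0789% of all genes. At an unadjusted p below 0.05 there were 6 and 3 of the 36 genes, beside 7.99% and 3.73% of all genes. In RevDKO 2 genes passed (5.56%), beside 2.53% of all genes. There 13 of 36 genes had an unadjusted limma p below 0.05, beside 18.8% of all genes. Decr1 was 49.2, 24.1 and 46.9 RPKTM at ZT4 and 108, 158 and 142 at ZT22, a peak-to-trough difference of 1.78 log2 units (limma adjusted p = 0.0154). Ehhadh was 30.5, 68.2 and 57.9 RPKTM at ZT4 and 156, 165 and 145 at ZT22 (1.71 log2 units, limma adjusted p = 0.0225). In RevDKO LMs 25 of 36 genes had their highest mean at ZT22, where in RevDKO hepatocytes 1 of 36 did. Macrophage marker sums in these LM libraries had means of 26296 RPKTM at ZT4 and 6696 at ZT22, and with hepatocyte markers in the fit 0 genes were rhythmic. The shares of all genes highest at ZT22 and of all genes rhythmic in that fit are not given here. No gene passed the test of a changed rhythm in LMs, where the smallest adjusted limma p was 0.891 between RevDKO and Control and 0.998 between RevScapTKO and RevDKO and 0.00% of all genes passed in both. At an unadjusted limma p below 0.05 there were 0 and 3 of the 36 genes, beside 5.50% and 3.57% of all genes.

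The ScapKO libraries had no Control in their tables, so only times within the genotype were compared. In ScapKO hepatocytes 1 of 36 genes was rhythmic, beside 1.85% of all 12724 genes tested, and 19 genes had an unadjusted limma p below 0.05, beside 14.6% of all genes. The rhythmic gene was Acsl1, with means of 7502, 7178, 10274 and 11743 RPKTM at ZT4, ZT10, ZT16 and ZT22 (0.85 log2 units, limma adjusted p = 0.0285). All 6 dark phase libraries, from 8964 to 12536 RPKTM, lay above all 6 light phase libraries, from 6068 to 8054. Replicate 2 at ZT22 stood apart, with Bdh1 at 260.5 RPKTM against 804 and 745 in the other 2 libraries of that time. Without it 9 genes were rhythmic, and the share of all genes is not given here. The macrophage markers of this replicate summed to 3891 RPKTM, against 556 and 711 in the other 2. Its endothelial markers summed to 4731 against 834 and 918, and the part of both marker sets in the result was not tested. Scap itself was 1006 RPKTM in replicate 2 at ZT22, against 205 and 339 in the other 2. Replicate 1 at ZT22 differed in Alb, which took 1.86% of its summed values, against 8.62% in the other 2. The part of these differences in the result was not tested either. In ScapKO LMs 0 genes passed, 0 had an unadjusted limma p below 0.05 (beside 10.1% of all genes), and 0.00% of all genes were rhythmic. Replicate 2 of these LMs at ZT22 had a macrophage marker sum of 25193 RPKTM, against 127265 and 113090 in the other 2. In each of 12 fits that left out 1 library 0 genes passed, and the share of all genes is not given here.

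Of 79 other genes of fatty acid uptake, oxidation, its control and synthesis, 76 were in the tables and 72 were tested in hepatocytes. Between RevDKO and Control 2 were higher and 7 lower, 2.78% and 9.72%, beside 2.0% and 2.43% of all genes. Ppard, a nuclear receptor related to Ppara, rose from a mean of 31.2 to 113 RPKTM (2.10 ± 0.19, limma adjusted p = 1.79e-09), Slc22a5, the carnitine importer, fell by 1.06 ± 0.12 on the log2 scale, Cd36, a fatty acid importer, by 1.05 ± 0.25, and Pparg, a nuclear receptor of fat storage, by 1.03 ± 0.25. Pcca, a subunit of propionyl-CoA carboxylase, rose (0.62 ± 0.15, limma adjusted p = 0.00781).

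Between RevScapTKO and RevDKO 4 of the 72 were higher and 33 lower, and between RevScapTKO and Control 4 were higher and 39 lower, with medians of −0.28 and −0.36. The shares were 5.56% and 45.8% between RevScapTKO and RevDKO, beside 13.5% and 12.7% of all genes, and 5.56% and 54.2% between RevScapTKO and Control, beside 17.3% and 18.7%. Macrophage markers moved with both comparisons, and with them in the fit 0 were higher and 12 lower, and 2 higher and 12 lower. The shares of all genes higher and lower in that fit were 0.653% and 1.92%, and 2.06% and 3.97%. From RevDKO to RevScapTKO the largest differences were in Acacb and Acaca, the acetyl-CoA carboxylases that make malonyl-CoA (−3.98 ± 0.25 and −1.98 ± 0.21), the synthetase Acsl3 (−3.72 ± 0.17), Ppard (−1.87 ± 0.19) and the cytosolic thiolase Acat2 (−1.78 ± 0.15), while Fgf21, a hormone induced by PPARα in fasting, rose from a mean of 13 to 36.2 RPKTM (1.63 ± 0.41, limma adjusted p = 0.00417). With macrophage markers in the fit Fgf21 did not pass (0.61, limma adjusted p = 0.727) and the 5 genes named here that fell still passed, with values from −4.58 to −1.38. In LMs 74 were tested. There 1 was higher and 0 lower in RevDKO than in Control (Ppard, 2.07 ± 0.31), 1 higher (Fgf21, 2.74 ± 0.51) and 14 lower in RevScapTKO than in RevDKO, and 1 higher and 10 lower in RevScapTKO than in Control. Of all genes 0.402% and 0.172%, 1.23% and 1.78%, and 2.38% and 1.38% were higher and lower in the same order. With hepatocyte markers in the fit the counts were 1 and 0, 2 and 10, and 6 and 14, each given as higher and lower. The shares of all genes in that fit were 0.315% and 0.201%, 4.19% and 2.70%, and 8.39% and 6.98%.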

How the data were processed

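RNA of hepatocytes and LMs was depleted of ribosomal RNA and made into stranded libraries by the authors, aligned with STAR to mm9 and counted over RefSeq transcripts with HOMER; versions are not given in the sources used here. The deposited values are RPKTM, an RPKM scaled to 10000000 reads, which the authors quantile normalized in each of 4 tables (36, 36, 12 and 12 libraries, 42322 transcripts). Libraries of a table hold identical sorted values, so depth is unknown, no interval that needs it is given, and a shift of most transcripts would not show. Titles name hepatocytes for 12 ScapKO libraries whose cell type field names macrophages, and titles were followed. Replicates are biological per the study's methods.

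limma 3.58.1 in R 4.3.3 was fitted to log2(RPKTM + 1), which understates changes of low genes, with a mean-variance trend and 1 mean per genotype and time. Genes were kept where at least 3 libraries exceeded 5 RPKTM, tests were two-sided, and p-values were adjusted over all genes by Benjamini-Hochberg. The script was tested on simulated data. JTK_CYCLE, other pseudocounts, filters and scalings, marker covariates, a replicate block and left-out libraries were alternatives. Named were all genes that passed, up to 10 per direction, with Ppara, Cpt1a, Acadm, Hadha, Ehhadh, Bdh1 and Pdk4 always. The genes and lists were chosen with earlier results of these data known.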

Additional observations from a re-analysis of the deposited data

How the results depend on the processing

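Depth is unknown, so precision rests on the spread between libraries alone. The counts of genes with a changed mean level in hepatocytes stayed within 1.5 times of the reported 11, 13 and 24 under other pseudocounts, no filter, rescaling by median of ratios, every transcript kept, the compared genotypes alone and without the 5 Alb-rich libraries. With macrophage markers in the fit 2 genes passed between RevScapTKO and RevDKO and 4 between RevScapTKO and Control. Of all genes 2.57% and 6.03% passed in the same order. Between RevDKO and Control LMs 1 gene passed with a pseudocount of 5 and 1 with hepatocyte markers in the fit. Of all genes 0.739% and 0.516% passed in these 2 fits. Replicate numbers did not pair the libraries (same-numbered libraries of different groups had a median correlation of 0.0191 in hepatocytes and 0.0829 in LMs), and with a replicate block 10, 13 and 25 genes passed in hepatocytes, 1 gene passed between RevDKO and Control LMs and 10 between RevScapTKO and Control LMs.

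Rhythmic genes depended most on the method, and the cause was not tested. In hepatocytes JTK_CYCLE with the series entered 2 times in a row called 4 genes in Control, 13 in RevDKO, 5 in RevScapTKO and 14 in ScapKO, beside 23.9%, 23.8%, 14.3% and 14.7% of all genes. In LMs it called 7, 8, 9 and 1, beside 13%, 19.6%, 9.91% and 15.3% of all genes. The second entry repeats the same data. With the series entered once it called 0, 3, 1 and 7 genes in Control, RevDKO, RevScapTKO and ScapKO hepatocytes. Of all genes it called 4.28%, 3.73%, 1.46% and 2.72% in the same order. In LMs of these genotypes it called 0, 0, 0 and 0, beside 0.961%, 1.48%, 0.753% and 2.02% of all genes. With macrophage markers in the fit 0, 1 and 0 genes were rhythmic in Control, RevDKO and RevScapTKO hepatocytes, and with hepatocyte markers 1 in Control and 0 in RevDKO LMs. No filter gave 1 in Control and 0 in ScapKO hepatocytes. ScapKO hepatocytes gave 2 with a pseudocount of 5, 3 with rescaling, 0 with no mean-variance trend and 2 with every transcript. Chosen after seeing the data, leaving out the Alb-rich libraries gave 0 in Control and 2 in RevScapTKO hepatocytes and 1 in Control LMs. For rhythm counts with markers, other settings of the limma fit or left-out libraries, the share of all genes is not given here. The alternative without 3 Alb-rich hepatocyte libraries could not be run as planned, since 5 hepatocyte libraries and 3 LM libraries met its rule.

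Leaving out 1 library at a time gave 6 to 13 genes for RevDKO against Control, 11 to 16 for RevScapTKO against RevDKO and 22 to 29 for RevScapTKO against Control in hepatocytes. In LMs it gave 0 to 1, 4 to 6 and 3 to 8. The shares of all genes in these fits are not given here. Rhythmic genes ranged from 0 to 3 in Control, 1 to 4 in RevDKO, 0 to 2 in RevScapTKO and 0 to 9 in ScapKO hepatocytes, and from 0 to 5 in RevDKO LMs. Counts of 0 arose, for example, without replicate 2 of Control hepatocytes at ZT16 and without replicate 2 of RevDKO LMs at ZT10.

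Values that changed sign were all of genes below the threshold after the change. Without the Alb-rich libraries Acadm was −0.022 (RevDKO against Control), Hadha 0.0031 and Bdh1 0.027 (RevScapTKO against RevDKO) and Cpt1a 0.048 (RevScapTKO against Control) in hepatocytes, and Bdh1 −0.079 (RevDKO against Control) and Acadm −0.060 (RevScapTKO against Control) in LMs. With macrophage markers in the fit Etfa was 0.035, Hadha 0.053 and Bdh1 0.13 (RevScapTKO against RevDKO) and Hadha 0.049 (RevScapTKO against Control) in hepatocytes. With hepatocyte markers Bdh1 was −0.13 (RevDKO against Control), Ppara 0.56, Hadha 0.12 and Bdh1 0.25 (RevScapTKO against RevDKO) and Ppara 0.29 and Bdh1 0.12 (RevScapTKO against Control) in LMs. With 1 library left out the sign also changed in hepatocytes for Acadm (−0.093 to 0.055) and Hadha (−0.15 to 0.080) in RevDKO against Control, Bdh1 in RevScapTKO against RevDKO (−0.10 to 0.033) and Hadha in RevScapTKO against Control (−0.19 to 0.033). In LMs it changed for Ppara (−0.23 to 0.067) and Bdh1 (−0.078 to 0.20) in RevDKO against Control, Ppara (−0.26 to 0.0059) and Cpt1a (−0.13 to 0.079) in RevScapTKO against RevDKO and Acadm in RevScapTKO against Control (−0.070 to 0.085).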
